A study of Homo sapiens with 6 samples.

Results

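Genes for 10 amino acid transporters were examined in an RNA-seq comparison of THP1 cells, an established human acute myeloid leukemia (AML) line of monocytic type. All encode carriers that move amino acids across the plasma membrane, and they were taken by gene symbol from the SLC7, SLC38, SLC1, SLC43 and SLC6 families (solute carrier families), out of 26485 genes in the table of read counts. THP1 cells were exposed for 6 h to Withaferin A (WFA), a plant steroidal lactone, or to the vehicle DMSO alone, with 3 replicates of each. For this RNA-seq the methods and figure legends of the paper put WFA at 1 μM, a dose also used in its other THP1 experiments. Only the titles of the WFA libraries read 1 mM, so the dose was taken to be 1 μM. The methods give the replicates as independent experiments. Both groups were the same unmodified line in the same serum-containing medium.

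Total counts lay between 11006035 and 13872810 per library. Of 12 monocytic markers, 11 were tested, 2 were higher and 5 lower with WFA (25.8% and 24.7% of all genes tested), and ELANE had no count in any library. LYZ and CSF1R had means of 1820 and 237 CPM (reads of a gene scaled to a fixed library size by TMM factors) with DMSO. Other markers of this list were low, with CD14 at 5.72 CPM and MPO at 2.46 CPM with DMSO. CD14 fell to 2.45 CPM with WFA. Among 12 markers of other cells, 6 never exceeded 3 counts and HBB was at 0, although COL1A1 had 0.453 CPM with DMSO and 9.95 CPM with WFA. Their summed level ran from 356 to 402 CPM with DMSO and from 317 to 336 CPM with WFA, most of it PECAM1, which monocytic cells also express. Whether these markers bear on the transporter values was not tested.

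Cells take up amino acids through several carriers that work side by side. SLC7A5, SLC7A6 and SLC7A7 are light chains that reach the cell surface bound to the heavy chain SLC3A2 (CD98) and work as exchangers. SLC38A1 and SLC38A2 bring in small neutral amino acids such as glutamine and alanine together with sodium, and SLC1A5 exchanges glutamine for other neutral amino acids. When amino acids run short or unfolded proteins accumulate, phosphorylation of eIF2α allows the transcription factor ATF4 to be made, and several amino acid transporter genes are known ATF4 targets.

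The 10 transporter genes did not move as one group. With WFA, SLC7A5, SLC38A2 and SLC6A9 rose, and SLC38A1, SLC1A5, SLC7A7 and SLC43A1 fell. SLC7A1, SLC7A6 and SLC1A4 did not pass the threshold. The rises reached 3.18-fold for SLC7A5 and 3.32-fold for SLC6A9, whereas the deepest fall, that of SLC43A1, was by 36.1%. All 10 genes passed the filter on low counts, so 3 of 10 were higher and 4 of 10 lower at an adjusted p-value under 0.05 (quasi-likelihood test of edgeR, Benjamini-Hochberg over 12854 genes). WFA changed much of the transcriptome, and 25.8% of all genes tested were higher and 24.7% lower by the same rule, so these counts lie near the background. The median log2 fold change was -0.19 over the 10 genes and 0.02 over all genes tested.

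**Figure D1:**
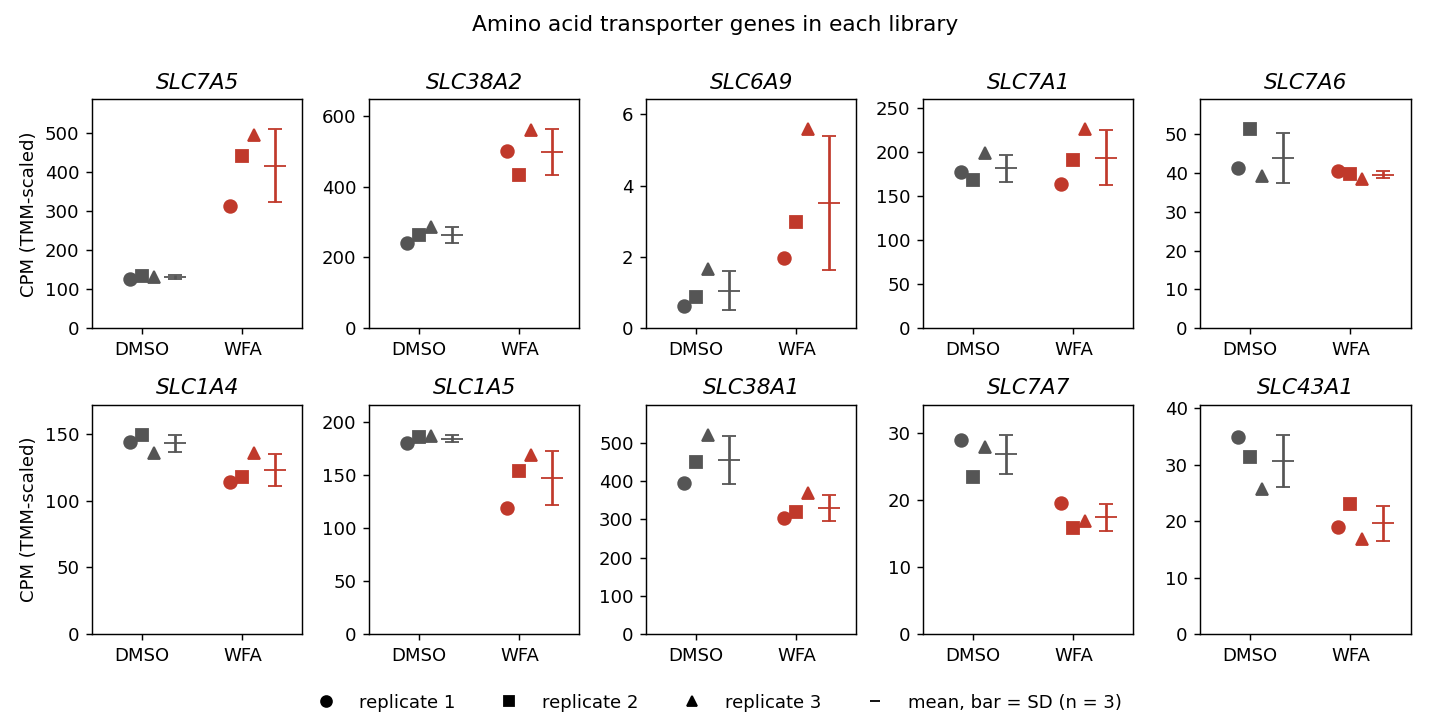
CPM scaled by TMM factors (vertical axes, each from 0) for the 10 transporter genes in the 3 DMSO and 3 WFA libraries. Symbols mark replicates and bars the mean ± SD (n = 3). For SLC7A5 the WFA libraries lie between 313 and 493 CPM and the DMSO libraries between 126 and 135 CPM, while the groups overlap for SLC7A1 and SLC7A6.

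The replicates can also be read by overlap. For 3 of the 10 genes every WFA library lay above every DMSO library, as for 29.6% of all genes tested, and for 5 of the 10 every WFA library lay below every DMSO library, as for 28.5%. The fifth of these was SLC1A4, whose closest libraries were both at 136 CPM. The plot of CPM by library shows the values of all 10 genes.

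The light chain genes of the exchangers differed among themselves. SLC7A5 encodes the light chain of LAT1, the exchanger that imports leucine and other large neutral amino acids, and lies on chromosome 16 (GRCh38 87830023 to 87869507, minus strand). It had 126, 135 and 131 CPM in DMSO replicates 1, 2 and 3 and 313, 441 and 493 CPM in the WFA replicates. The groups were far apart, and the WFA libraries also differed more among themselves than the DMSO libraries did. The log2 fold change by edgeR was 1.67 with SE 0.13 (adjusted p = 1.18e-07). Within the experiments it was 1.31, 1.71 and 1.91 for replicates 1, 2 and 3. In its 2 pseudogenes, SLC7A5P1 and SLC7A5P2, which could share its reads, no library had more than 10 counts.

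SLC7A7 encodes the light chain of y+LAT1 and SLC7A6 that of y+LAT2, which release cationic amino acids in exchange for neutral ones. SLC7A7 (chromosome 14, GRCh38 22773222 to 22819791, minus strand) had 28.9, 23.5 and 27.9 CPM with DMSO and 19.6, 15.8 and 16.8 CPM with WFA. Each WFA library was below each DMSO library, and the level fell by 34.9% (log2 fold change -0.62, standard error 0.13, edgeR adjusted p = 0.000952).
SLC7A6 (chromosome 16, GRCh38 68264526 to 68301819, plus strand) had 41.3, 51.2 and 39.2 CPM with DMSO against 40.4, 39.7 and 38.5 CPM with WFA. These groups overlapped, and the log2 fold change was -0.15 with a 95% interval from -0.39 to 0.09 (edgeR adjusted p = 0.276). Without DMSO replicate 2, the highest of the DMSO libraries, it was -0.04. Of the 6356 exon bases of SLC7A6, 3371 are shared with SLC7A6OS on the opposite strand. The library kit does not mark strand, so reads there cannot be told apart. SLC7A6OS had 244, 251 and 219 counts with DMSO and 232, 272 and 239 with WFA.

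The heavy chain gene SLC3A2 rose together with SLC7A5. It had 108, 114 and 117 CPM with DMSO and 225, 254 and 370 CPM with WFA, which edgeR fitted as a 2.51-fold rise (log2 1.33, SE 0.14, adjusted p = 2.44e-06). SLC3A1 (rBAT), the heavy chain of a renal amino acid exchanger, stayed at 4 counts or fewer throughout and fell under the filter.

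The count of each light chain gene was set against that of SLC3A2 in the same library, which needs no scaling between libraries. Counts were not divided by exon length (4587 bases for SLC7A5 and 2654 for SLC3A2). The change of a ratio can therefore be read, but its sign does not rank the 2 genes. The log2 ratio of SLC7A5 to SLC3A2 went from 0.22 ± 0.042 with DMSO to 0.56 ± 0.2 with WFA (SD, n = 3 each). It was higher with WFA in each pair of same-numbered libraries, by 0.25, 0.55 and 0.25. The difference of the means was 0.35, and 0.23 without WFA replicate 2. The ratio of SLC7A6 to SLC3A2 went from -1.37 ± 0.21 to -2.81 ± 0.41, and that of SLC7A7 to SLC3A2 from -2.08 ± 0.19 to -3.99 ± 0.47 (SD, n = 3 each). All 3 ratios separated the groups without overlap. Each gave p = 0.1 in a two-sided exact permutation test, also after Benjamini-Hochberg adjustment over the 3 ratios, and 0.1 is the smallest value that 3 libraries against 3 allow. This test took the libraries as unpaired. The 3 ratios share the SLC3A2 count and are not independent of each other. By edgeR the log2 fold change was 1.33 for SLC3A2, 1.67 for SLC7A5, -0.15 for SLC7A6 and -0.62 for SLC7A7. The fall of the SLC7A6 ratio was thus mostly the rise of SLC3A2.

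**Figure D2:**
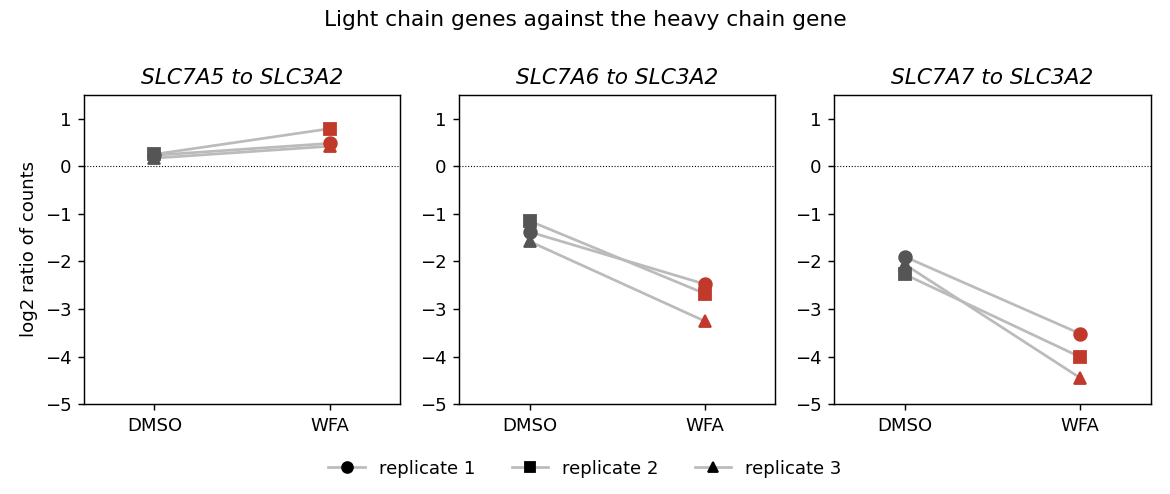
Log2 ratio of the count of each light chain gene to that of the heavy chain gene SLC3A2 (vertical axes, the same scale in each panel) in DMSO and WFA libraries. Gray lines join same-numbered replicates. Counts are not divided by exon length. The mean ratio goes up from 0.22 to 0.56 for SLC7A5 and down from -1.37 to -2.81 for SLC7A6 and from -2.08 to -3.99 for SLC7A7. SLC3A2 itself rose with WFA, and SLC7A6 itself did not pass the threshold.

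Promoter sequences are shown for genes that moved apart or together, so that their start sites can be compared. Each window runs from 250 bases before to 50 bases after a start site of RefSeq (GRCh38.p14), 5′ to 3′ on the strand of the gene, and base 251 is the first transcribed base. All 10 transporter genes and SLC3A2 matched by symbol, the 10 with 17 windows in all. Capitals mark matches on either strand to 4 motifs, namely TGATGNAA (the C/EBP-ATF response element core that ATF4 binds), CACGTG (the E-box), TGACNNNGC (the antioxidant response element core) and GAANNTTC (a heat shock element core). The windows below are those of SLC7A5 (chr16:87869458-87869757, minus strand) and of SLC3A2 (chr11:62881449-62881748, plus strand), which rose together.
SLC7A5: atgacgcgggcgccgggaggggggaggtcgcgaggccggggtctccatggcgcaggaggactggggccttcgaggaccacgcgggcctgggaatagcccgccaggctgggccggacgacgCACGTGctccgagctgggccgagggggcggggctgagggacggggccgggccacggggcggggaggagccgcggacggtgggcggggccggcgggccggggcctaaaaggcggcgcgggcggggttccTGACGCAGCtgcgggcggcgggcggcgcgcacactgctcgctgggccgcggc
SLC3A2: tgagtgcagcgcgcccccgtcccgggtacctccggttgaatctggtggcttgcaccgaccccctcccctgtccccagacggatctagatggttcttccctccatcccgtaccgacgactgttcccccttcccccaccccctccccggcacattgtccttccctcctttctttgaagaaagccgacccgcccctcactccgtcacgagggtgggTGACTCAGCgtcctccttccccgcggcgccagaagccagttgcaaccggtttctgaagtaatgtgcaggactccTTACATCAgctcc

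The SLC7A5 window holds an E-box at base 121 and an antioxidant response element match at base 249, and no match to TGATGNAA. The SLC3A2 window holds TTACATCA, a match to TGATGNAA on the other strand, at base 288, and an antioxidant response element match at base 214. SLC3A2 has 3 windows, and the printed one is at a start site inside the gene. The others, including that at the 5′ end of the gene, hold none of the 4 motifs. A match is only a run of letters and does not show binding.

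The sodium-coupled pair SLC38A1 and SLC38A2 moved in opposite directions. These genes lie 89.1 kb apart on chromosome 12, both on the minus strand (GRCh38 46183063 to 46269043 for SLC38A1 and 46358188 to 46372773 for SLC38A2). SLC38A2 had 242, 262 and 285 CPM with DMSO and 499, 432 and 561 CPM with WFA. No WFA library came near the DMSO libraries, and the gene rose 1.89-fold (log2 fold change 0.92, standard error 0.11, edgeR adjusted p = 4.68e-06).
SLC38A1 had 395, 449 and 521 CPM with DMSO and 303, 319 and 369 CPM with WFA. It was lower in each WFA library and fell by 27.3% (log2 fold change -0.46, standard error 0.11, edgeR adjusted p = 0.00279). The log2 ratio of SLC38A2 to SLC38A1 counts was -0.71, -0.78 and -0.87 with DMSO and 0.72, 0.44 and 0.61 with WFA, so SLC38A1 had more reads with DMSO and SLC38A2 more with WFA in each experiment. These counts are not divided by exon length, which is 9327 bases for SLC38A1 and 5006 for SLC38A2. Per kilobase of exon the ranges of the 2 genes overlapped with DMSO.

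The windows at the start sites of this neighbouring pair are printed to set them side by side. They lie at chr12:46266467-46266766 for SLC38A1 and at chr12:46372724-46373023 for SLC38A2. The SLC38A1 window is at a start site inside the gene, whose 5′ end is at 46269043, and the SLC38A2 window is at the 5′ end of its gene (46372773).
SLC38A1: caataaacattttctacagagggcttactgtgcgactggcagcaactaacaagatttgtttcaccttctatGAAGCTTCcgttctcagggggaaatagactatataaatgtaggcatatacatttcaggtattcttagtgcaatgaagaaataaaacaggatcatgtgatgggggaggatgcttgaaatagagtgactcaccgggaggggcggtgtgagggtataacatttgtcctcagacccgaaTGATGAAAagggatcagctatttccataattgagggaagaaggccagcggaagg
SLC38A2: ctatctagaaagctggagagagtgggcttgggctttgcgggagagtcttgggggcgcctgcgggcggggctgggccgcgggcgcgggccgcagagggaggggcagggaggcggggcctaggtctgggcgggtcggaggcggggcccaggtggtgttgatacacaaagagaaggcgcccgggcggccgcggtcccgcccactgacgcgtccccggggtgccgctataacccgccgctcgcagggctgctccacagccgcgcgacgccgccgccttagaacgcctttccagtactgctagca

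The SLC38A1 window, of the gene that fell, holds TGATGAAA at base 247 and a heat shock element match at base 72, and its second window holds none of the 4 motifs. The SLC38A2 window holds none of them. Among the 10 genes, 4 had TGATGNAA in a window (SLC7A1, SLC38A1, SLC1A4 and SLC1A5). None of the 3 that rose did, whereas SLC3A2, which also rose, had a match. Over all genes with a window, 4.46% had a match, and 3.62% of 35116 windows did. An E-box was found for 4 of the 10 genes (8.77% of all genes), an antioxidant response element match for 5 (16.1%) and a heat shock element match for 1 (8.21%). The genes have between 1 and 3 windows each, and a gene with more windows has more room for a match. Only these windows were searched, so a gene without a match may still hold a site elsewhere. Whether ATF4 acts on any of these genes was not tested, nor was which start sites these cells use.

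The exchangers of the SLC1 family moved little. SLC1A5 encodes ASCT2, a main route for glutamine, and lies on chromosome 19 (GRCh38 46774883 to 46788594, minus strand). Its values were 180, 186 and 187 CPM with DMSO and 119, 154 and 169 CPM with WFA. The DMSO libraries were close to each other and the WFA libraries spread below them. SLC1A5 fell by 20% (log2 fold change -0.32, standard error 0.11, edgeR adjusted p = 0.0233). The call was lost without WFA replicate 1, where the log2 fold change was -0.19 (edgeR adjusted p = 0.102). It was also lost without DMSO replicate 3 (edgeR adjusted p = 0.0583), although the log2 fold change there, -0.31, was close to that of the full fit.
SLC1A4 encodes ASCT1, which carries serine, alanine and cysteine (chromosome 2, GRCh38 64988479 to 65023865, plus strand). It had 144, 149 and 136 CPM with DMSO and 114, 118 and 136 CPM with WFA, with a log2 fold change of -0.22 and a 95% interval from -0.41 to -0.03. Its edgeR adjusted p was 0.0507, just outside the threshold, and 0.0109 with the replicate number as a block, so its call depends on the fit.

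One of the 2 windows of SLC1A4 is printed because it holds the stricter form TGATGCAA, read as TTGCATCA on the other strand at base 244, which 1.08% of all genes have. The third of the 3 windows of SLC1A5 holds the same form at base 154. The SLC1A4 window lies at chr2:64989149-64989448, and both it and that SLC1A5 window are at start sites inside the gene.
SLC1A4: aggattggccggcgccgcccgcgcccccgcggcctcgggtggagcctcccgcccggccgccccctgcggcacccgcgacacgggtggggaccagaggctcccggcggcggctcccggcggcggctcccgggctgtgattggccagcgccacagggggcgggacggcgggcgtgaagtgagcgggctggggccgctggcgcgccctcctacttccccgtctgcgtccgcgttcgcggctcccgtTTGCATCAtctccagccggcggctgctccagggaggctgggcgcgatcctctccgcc

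SLC7A1 encodes CAT1, the main carrier of arginine and lysine in many cells (chromosome 13, GRCh38 29509414 to 29595688, minus strand). It had 178, 169 and 199 CPM with DMSO and 164, 191 and 226 CPM with WFA. WFA libraries lay on both sides of the DMSO libraries. The log2 fold change was 0.09 with a 95% interval from -0.15 to 0.33 (edgeR adjusted p = 0.537), which excludes a change as large as that of SLC7A5. Within the experiments it was -0.12, 0.17 and 0.18.

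SLC43A1 encodes LAT3, which carries leucine and related amino acids without a heavy chain or an ion gradient (chromosome 11, GRCh38 57484534 to 57515702, minus strand). It had 35.0, 31.4 and 25.8 CPM with DMSO and 19.0, 23.0 and 16.8 CPM with WFA. Each WFA library was below each DMSO library, and the level fell by 36.1% (log2 fold change -0.65, standard error 0.14, edgeR adjusted p = 0.00143). LAT3 and LAT1 share substrates, and their genes changed in opposite directions.

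SLC6A9 encodes GlyT1, which takes up glycine with sodium and chloride (chromosome 1, GRCh38 43996483 to 44031462, minus strand). It was the least counted of the 10 genes, with 9, 11 and 20 reads in the DMSO libraries and 24, 37 and 60 reads in the WFA libraries. Both groups were low and the WFA libraries varied widely, although the groups did not overlap. By edgeR the log2 fold change was 1.73 with SE 0.41 (adjusted p = 0.00259), with a 95% interval from 0.85 to 2.61. As a fold this interval runs from 1.81 to 6.1. Its exons share 331 bases with CCDC24 on the opposite strand, which had 11, 8 and 11 counts with DMSO and 24, 22 and 10 with WFA.

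**Figure D3:**
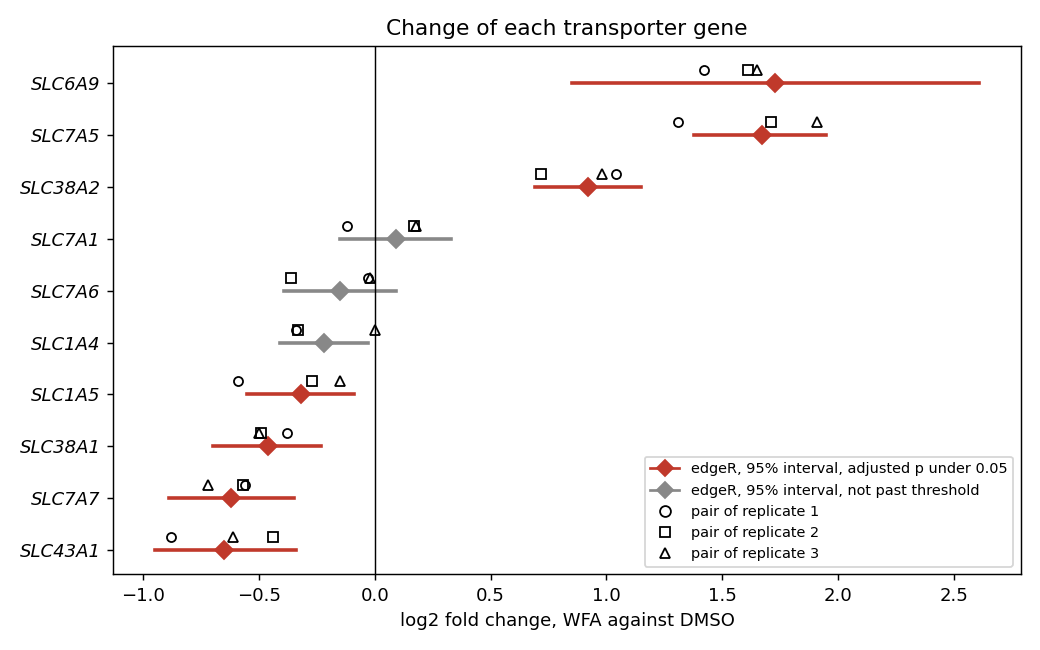
Log2 fold change of WFA against DMSO (horizontal axis) for the 10 transporter genes. Diamonds and bars give the edgeR estimate with its 95% interval, in red where the adjusted p-value is under 0.05, and open symbols the difference within each same-numbered pair. SLC7A5 (1.67), SLC38A2 (0.92) and SLC6A9 (1.73) lie to the right of 0 and SLC43A1 (-0.65) lies farthest to the left.

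The size of the changes differed between experiments more for some genes than for others. For SLC38A1 the differences within pairs were -0.38, -0.49 and -0.5, and for SLC7A7 they were -0.56, -0.57 and -0.72. For SLC1A5 they were -0.59, -0.27 and -0.15, and for SLC1A4 -0.34, -0.33 and 0.00. All 7 called genes had the same sign in each pair. For SLC38A2 the pairs gave 1.04, 0.72 and 0.98, for SLC6A9 1.42, 1.61 and 1.65, and for SLC43A1 -0.88, -0.44 and -0.61.

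Levels of different genes were compared per kilobase of exon (RPKM, from the TMM-scaled CPM and the merged exons of GENCODE 29 basic transcripts). With DMSO the highest were SLC1A5 (55.3 ± 1.05), SLC38A2 (52.5 ± 4.38) and SLC38A1 (48.8 ± 6.79), whose ranges overlapped in this order (SD, n = 3 each). SLC1A4 (30.5 ± 1.34) and SLC7A5 (28.5 ± 0.977) came next with overlapping ranges, followed by SLC7A1 (24.8 ± 2.1). SLC43A1 (11.4 ± 1.7), SLC7A7 (9.92 ± 1.08) and SLC7A6 (6.9 ± 1.01) were lower, with the first of these pairs overlapping, and SLC6A9 was lowest at 0.245 ± 0.125 RPKM. The place of SLC7A6 is uncertain, since 3371 of its 6356 exon bases are shared with SLC7A6OS. If reads there were not counted, its level per kilobase is too low.
With WFA the order at the top changed. SLC38A2 (99.4 ± 12.9 RPKM) and SLC7A5 (90.7 ± 20.2 RPKM) were highest with overlapping ranges, and SLC7A5 had moved from rank 5 to rank 2. SLC1A5 (44.3 ± 7.59 RPKM) and SLC38A1 (35.4 ± 3.69 RPKM) followed, also overlapping. On the same scale the heavy chain gene SLC3A2 had 42.5 ± 1.76 RPKM with DMSO and 107 ± 28.9 RPKM with WFA (SD, n = 3 each). With the longest transcript of each gene in place of its merged exons, SLC38A1 and SLC38A2 changed places with DMSO, and SLC1A4 and SLC7A1 with WFA.

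**Figure D4:**
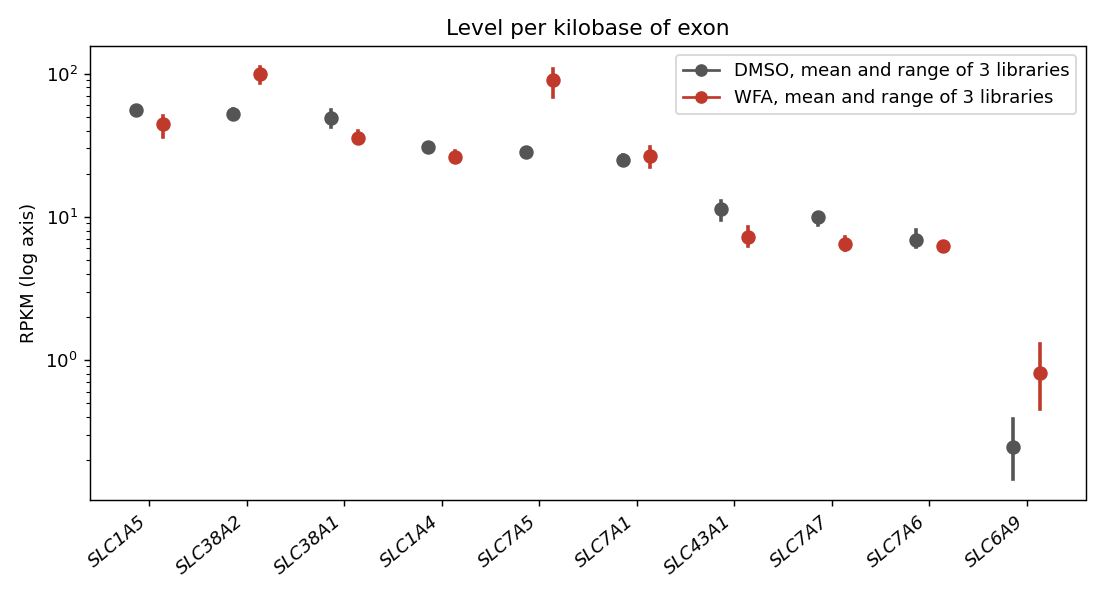
Level per kilobase of exon (RPKM, log axis) of the 10 transporter genes, ordered by their level with DMSO. Points are means and bars the range of 3 libraries. With WFA, SLC38A2 (99.4 RPKM) and SLC7A5 (90.7 RPKM) lie above the other 8 genes.

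The make-up of the reads on the 10 genes shifted with these changes. SLC7A5 held 8.98 ± 0.46% of their summed count with DMSO and 23.1 ± 3% with WFA, and SLC38A2 went from 18 ± 0.37% to 27.9 ± 3.2% (SD, n = 3 each). SLC38A1 went from 31 ± 2.4% to 18.5 ± 0.45%, and SLC1A5 from 12.6 ± 0.58% to 8.22 ± 0.7%. The summed level of the 10 genes was between 1370 and 1550 CPM with DMSO and between 1590 and 2030 CPM with WFA.

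Other amino acid transporters of the plasma membrane were mostly at or near 0 in these cells. Of 27 listed, 16 never exceeded 3 counts and 8 were tested. The test called 2 of the 8 higher and 2 lower, near the 25.8% and 24.7% of all genes tested, and the median change of the 8 was 0.11 on the log2 scale (0.02 over all genes tested). SLC7A11, the cystine importer xCT and another partner of SLC3A2, had 39.4, 24.8 and 63 CPM with DMSO and 198, 210 and 252 CPM with WFA (log2 fold change 2.38, standard error 0.22, edgeR adjusted p = 5.62e-07). SLC6A6, the taurine transporter, had means of 36.7 ± 3.28 CPM with DMSO and 112 ± 18.7 CPM with WFA (SD, n = 3) and rose by 1.61 on the log2 scale (edgeR adjusted p = 5.81e-08). SLC7A2, the inducible cationic transporter CAT2, had 16, 12.8 and 20 CPM with DMSO and 4.74, 3.3 and 3.82 CPM with WFA. Its log2 fold change was -2.03 (edgeR adjusted p = 9.35e-07), against 0.09 for SLC7A1 of the same type. SLC16A10, which carries aromatic amino acids, fell by 34.8% (log2 -0.62, edgeR adjusted p = 0.0408), a call that DESeq2's Wald test did not make.

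Many transporters of the lysosome return amino acids and peptides to the cytosol. Of 10 listed, 9 were tested, and 6 were higher and 0 lower by edgeR's test, against 25.8% higher and 24.7% lower of all genes tested, and the median change was 0.68 on the log2 scale (0.02 over all genes tested). At an unadjusted p-value under 0.05 there were also 0 lower in edgeR, and DESeq2 called 0 lower. With the replicate block 3 were called lower (SLC36A4, SLC15A3 and SLC66A1, the last listed as PQLC2). The block also called more of all 12854 genes tested, with 3877 higher and 3708 lower, against 3311 and 3178 without it. SLC36A1, which exports small neutral amino acids from the lysosome, had means of 50.5 ± 2.46 CPM with DMSO and 91.2 ± 9.25 CPM with WFA (SD, n = 3) and rose by 0.85 on the log2 scale (edgeR adjusted p = 3.91e-06). The arginine-sensing carrier SLC38A9 rose by 0.69 on the log2 scale (edgeR adjusted p = 6.64e-05), and SLC38A7, of the same family as SLC38A1 and SLC38A2, by 0.68 (edgeR adjusted p = 0.000157).

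Genes that link amino acid supply to the kinase complex mTORC1 changed in both directions. Of 39 tested, 19 were higher and 5 lower, against 25.8% higher and 24.7% lower of all genes tested, and the median change was 0.31 on the log2 scale (0.02 over all genes tested). With total counts in place of TMM factors the split was 16 higher and 9 lower. Over all 12854 genes tested that scaling gave 2763 higher and 3875 lower, against 3311 and 3178 with TMM factors. The methionine-pathway sensor BMT2 (SAMTOR, listed by its older symbol C7orf60) had means of 13.7 ± 0.89 CPM with DMSO and 43.8 ± 2.23 CPM with WFA (SD, n = 3) and rose by 1.67 on the log2 scale (edgeR adjusted p = 1.61e-08). The leucine sensor SESN2 had 10.6, 9.79 and 11.1 CPM with DMSO and 28.3, 37 and 54 CPM with WFA (log2 fold change 1.92, edgeR adjusted p = 1.18e-06). CASTOR2, related to the arginine sensor CASTOR1 and listed as GATSL2, rose by 1.32 on the log2 scale (edgeR adjusted p = 7.96e-06). SEH1L and MIOS, which encode subunits of GATOR2, fell by 56.1% and 45.5% (log2 fold changes -1.19 and -0.87, edgeR adjusted p = 6.14e-07 and 1.38e-06). DEPTOR, an inhibitor bound to mTOR, fell by 55.5% (log2 fold change -1.17, edgeR adjusted p = 2.15e-05).

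**Figure D5:**
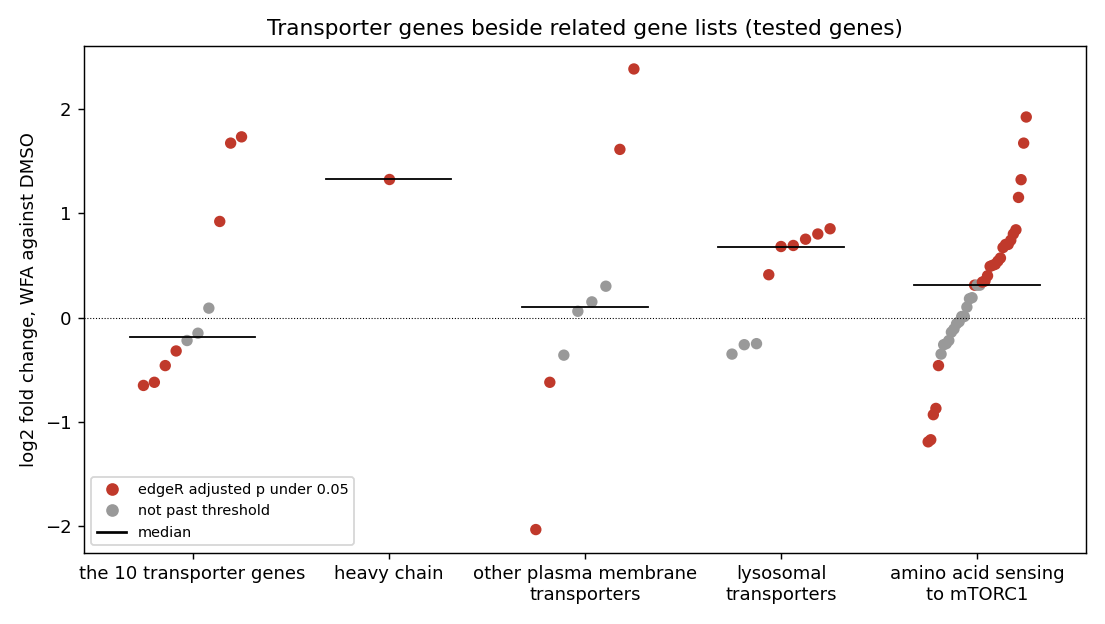
Log2 fold change of WFA against DMSO (vertical axis) for the tested genes of each list, each point a gene, in red where the edgeR adjusted p-value is under 0.05, with black lines at the medians. The medians are -0.19 for the 10 transporter genes, 0.11 for the other plasma membrane transporters, 0.68 for the lysosomal transporters and 0.31 for the genes of amino acid sensing.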

How the data were processed

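RNA-seq was performed on 6 THP1 libraries prepared with a kit that does not mark strand. The authors deposited raw counts of reads per gene, a score per library (counts scaled by size factors, then rounded, and not tested here), and their own fold changes and p-values, which were not used. The submitters' processing notes name bcl2fastq 2.19, Trimmomatic, Bowtie2, Picard, featureCounts, DESeq2 and the build hg38. The annotation and the treatment of multiply mapped or overlapping reads are not given in the sources used here.

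Counts were compared with edgeR 4.0.16 in R 4.3.3 by the quasi-likelihood test after TMM normalization and filterByExpr (minimum count of 10), with Benjamini-Hochberg adjustment over 12854 genes and a threshold of 0.05. Standard errors are the log2 fold change over the root of F. The edgeR p-values set the difference of the groups against the spread between the 3 replicates per group, which edgeR moderates with that of all genes. The fit was tested on simulated data. Alternatives were DESeq2 1.42.0, other scalings and filters, a replicate block and leaving out each library. Same-numbered libraries carry the same suffix in their labels and deviated together from their group means (correlations 0.217, 0.333 and 0.245), so the numbers pair the libraries. Libraries of a group differed by more than sampling noise (chi-square per gene between 5.98 and 11.1).

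The 10 genes, the related lists and the tests were chosen with earlier results of these data known. Named were all 10 genes, the heavy chains and, per list, up to 3 called genes with the smallest p-value in each direction, and overlapping genes or copies with 10 or more counts in some library. Gene positions and promoters are from RefSeq (GRCh38.p14). Motif shares are descriptions. Exon lengths are from GENCODE 29, and the length of the longest transcript was an alternative chosen after seeing the data. Intervals cover the spread between libraries as edgeR models it, and in these bulk samples fewer cells of a kind and less RNA per cell cannot be told apart.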

Additional observations from a re-analysis of the deposited data

How the results depend on the processing

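The 13 alternatives were the replicate block, DESeq2, 3 scalings, 2 filters and leaving out each of the 6 libraries. SLC7A5, SLC38A2, SLC38A1, SLC7A7 and SLC43A1 kept their direction and their call under all 13, and SLC6A9 under the 12 in which it was tested (a minimum count of 50 removed it). Over the fits without one library, SLC7A5 ranged from 1.53 to 1.84 and SLC6A9 from 1.25 to 2.20 on the log2 scale. SLC7A1 ranged from -0.04 without WFA replicate 3 (edgeR adjusted p = 0.802) to 0.2 without WFA replicate 1 on that scale, was at 0.00 with total counts, and was called under none of the 13. The number of the 10 genes that were lower was 5 with the replicate block, where SLC1A4 was added, and the block changed no other call among the 10. Over all 12854 genes tested the block gave 3708 lower, against 3178 in the main fit. The blocked fit gave infinite prior degrees of freedom, so its p-values treat all genes as equally dispersed around the trend. SLC1A5 kept its call except without WFA replicate 1 or DMSO replicate 3. SLC1A4 also passed with DESeq2, total counts, RLE size factors, no filter, and without DMSO replicate 3 or WFA replicate 3 (adjusted p-values from 0.0107 to 0.0498).

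Among the other plasma membrane transporters the number lower was 1 with DESeq2 and 1 with a minimum count of 50, and from 1 to 2 in the fits without one library (1 without DMSO replicate 1 or 3 or WFA replicate 2 or 3). The lysosomal number lower was 3 with the replicate block, 1 with total counts, 1 with no filter, and from 0 to 2 in the fits without one library (2 without DMSO replicate 2, 1 without DMSO replicate 3 or WFA replicate 1). For amino acid sensing the number lower was 9 with total counts. Over all 12854 genes tested, 3178 were lower in the main fit, 3708 with the replicate block and 3875 with total counts. With no filter 3394 of 18328 were lower, with DESeq2 3083 of 14064, and with a minimum count of 50 it was 2848 of 10783. The fits without one library gave from 2815 to 3016 lower over all genes tested. The causes were not tested. The chain ratio differences kept their sign with the replicate block and without each library, and that of SLC7A5 to SLC3A2 ranged from 0.23 without WFA replicate 2 to 0.42 without WFA replicate 3. Depth limits SLC6A9, with between 9 and 60 reads per library, more than the other 9 genes.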
